A study of Rattus norvegicus with 2 samples.

Results

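The genes described are 10 signalling genes of the suprachiasmatic nucleus and of the PACAP family, measured in whole hypothalamus of rats. They are the peptide genes Vip, Adcyap1, Grp, Nms, Nmb and Prok2 and the receptor genes Vipr1, Vipr2, Adcyap1r1 and Prokr2. They were taken by gene name from 26327 genes and other targets on the array, by a list written with earlier results of these data known, and all 10 had at least 1 spot. The array names one of them NMS, in capitals, and it was taken as Nms. The tissue was the whole hypothalamus of Wistar Kyoto (WKY) rats, a normotensive strain, aged 9 weeks. The female group was 1 pool of RNA from 5 rats and the male group 1 pool of RNA from 5 rats, each rat giving 100 ng, and the labels give no treatment. All rats were fed freely and killed by ether inhalation and decapitation. Each pool was hybridised to 1 Agilent array read in the Cy3 channel, so there was no replicate and no test of the sexes was possible.

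The suprachiasmatic nucleus lies above the optic chiasm and is the master circadian clock of mammals. Its neurons are coupled by peptides, above all by vasoactive intestinal peptide acting on the receptor VPAC2, while PACAP reaches the nucleus in fibres from the retina that carry the light signal. VIP and PACAP are close relatives in the secretin family and share the class B receptors VPAC1 and VPAC2, while PAC1 prefers PACAP, and all of them raise cAMP. Gastrin-releasing peptide and neuromedin B are the mammalian members of the bombesin family, neuromedin S is made mostly in the suprachiasmatic nucleus and acts on neuromedin U receptors, and prokineticin 2 is a secreted output signal of the clock. Several of these genes are also expressed elsewhere in the hypothalamus, so a level in the whole tissue is not that of the nucleus alone. In pooled tissue RNA, fewer cells of a type and less RNA per cell cannot be told apart.

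The 10 genes were covered by 12 probes of 60 bases, each printed on 1 spot, 3 of them for Adcyap1r1 and 1 for each other gene. The sequences of 5 probes taken to lie in coding sequence are given, to show which stretch of the transcript the values come from. Nms had the widest difference, Prok2 was not well above background, and the Adcyap1r1 probe went the other way from the gene's other 2. Adcyap1 and Prokr2 are a ligand and a receptor whose differences lay below 1.5-fold. They were read from the deposited files, 5′ to 3′ in the sense of the transcript. Each has a reading frame with no stop codon before its last codon, and the capitals mark the stop codon that ends this frame in Prok2 and Prokr2.
Nms: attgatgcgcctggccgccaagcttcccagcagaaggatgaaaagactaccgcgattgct
Prok2: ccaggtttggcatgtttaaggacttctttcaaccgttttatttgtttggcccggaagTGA
Prokr2: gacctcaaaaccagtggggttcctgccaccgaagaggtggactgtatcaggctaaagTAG
Adcyap1: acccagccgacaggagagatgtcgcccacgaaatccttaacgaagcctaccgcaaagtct
Adcyap1r1: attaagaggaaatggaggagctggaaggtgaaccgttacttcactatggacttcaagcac
In the build rn4, which the file headers name, the Nms probe lies at chr9:37935316-37935375 on the plus strand and the Prok2 probe at chr4:134561300-134561359 on the minus strand. The Prokr2 probe lies at chr3:120139415-120139474 on the minus strand. The Adcyap1 probe spans 486 bases of the unlocalised chromosome sequence 9_random, at positions 1057315 to 1057800, so its 60 bases are not contiguous there. The printed Adcyap1r1 probe lies at chr4:84253950-84254009 on the plus strand. The Vip probe lies at chr1:36369494-36369553, the Grp probe at chr18:62176219-62176278 and the Vipr2 probe at chr6:143416621-143416680, all on the plus strand, and the Nmb probe at chr1:137097467-137097526 on the minus strand. The files call the Vipr1 probe unmapped. Exons and introns of rn4 were not annotated here.

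The 75th percentile of the processed intensity, by which each array was scaled, was 2943 in the female pool, against 3769 in the male pool. The scanner software called 84.2% of spots well above background for the female pool, against 84.9% for the male pool, leaving out controls, and no spot was saturated. A level below is log2 of the processed intensity minus log2 of that percentile, so 0 is the level of the 75th percentile spot. Levels of different probes are not comparable with each other, since probes bind with different strength. The technical SD given with a difference is the scatter of the female minus male difference between repeated spots of 1 probe on this slide, from 1310 probes on repeated spots. Genes were split into 4 bins by level, and it was 0.15 log2 in the dimmest bin and 0.054 in the brightest, and it leaves out the spread between rats, labelling reactions and hybridisations.

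Differences between the 2 pools were small for the 9 members that could be measured, but no smaller than for a typical gene. The members' median absolute difference was 0.14 log2, beside 0.092 over all measured genes. Of the 9 members, 5 differed more than the median gene and 4 less. A difference of more than 2 technical SD was found for 3 members. The share of all genes past that cutoff was not worked out, so this count is not a result about the members. None of the 9 differed by 1.5-fold or more, against 2.4% of the 20656 genes with a value in each pool. At that size 1.55% of these genes were higher and 0.842% lower in females. None differed by 2-fold or more, against 0.847% of all genes, or 0.508% higher and 0.339% lower in females. Of these 9 genes, 5 had a higher level in the female pool and 4 a lower one, with differences from -0.38 to 0.19 log2. Their median difference was 0.053 log2, beside 0.00011 over all measured genes, and turned to -0.028 with scaling on spike-in controls. That scaling moved the median of all genes to -0.081 log2 and lowered every difference accordingly, so the members above 0 shrank, Nmb turning below 0, and those below 0 widened. At 1.5-fold, 321 of all genes were higher and 174 lower in females, or 235 higher and 243 lower with spike-in scaling. These shares of all genes are low, so a count of 0 among 9 genes lies near the background and is not a result about the members.

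**Figure D1:**
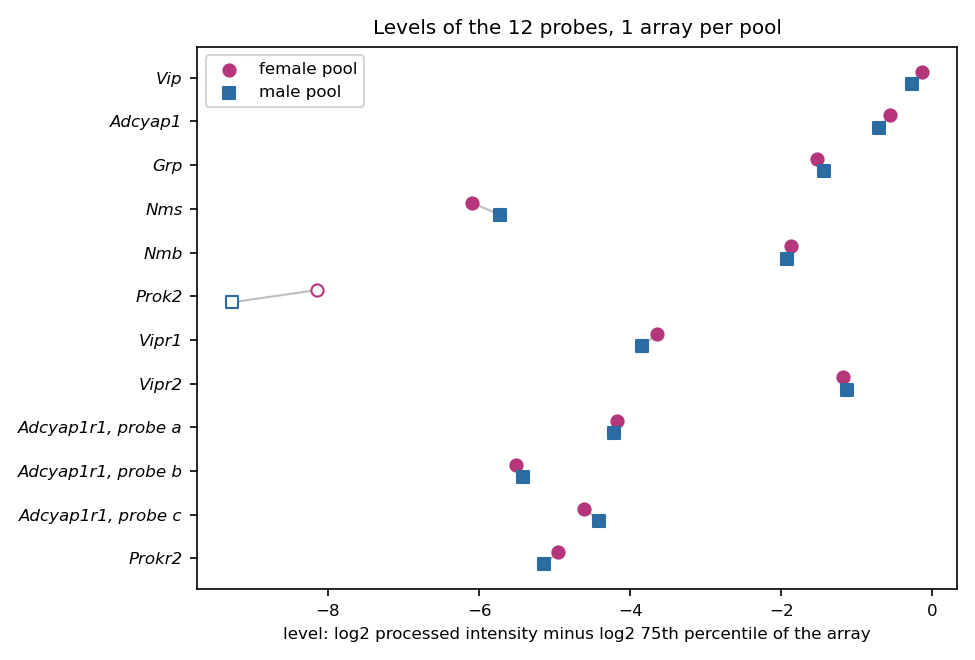
Levels of the 12 probes (horizontal axis, log2 processed intensity minus the log2 75th percentile of the array) in the female pool (circles) and the male pool (squares), 1 array each. Open symbols mark Prok2, not well above background in either pool; for the 11 other probes the 2 symbols lie up to 0.38 log2 apart, and levels of different probes cannot be ranked.

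Vip encodes vasoactive intestinal peptide, the signal that keeps neurons of the nucleus in step. Its spot gave an intensity of 2686 in the female pool, against 3126 in the male pool, which are levels of -0.13 log2 (female) and -0.27 log2 (male). After scaling Vip was 1.10-fold higher in the female pool, a difference of 0.14 log2 with a technical SD of 0.061. This is 2.25 times the technical SD, but 33.6% of all measured genes differed at least as much, and 20.5% of the 2877 genes in the same bin of level. With spike-in scaling the difference was 0.057 log2, under 1 technical SD.

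Adcyap1 encodes PACAP, which besides the retinal fibres is made in neurons of the hypothalamus itself. It had levels of -0.56 log2 in the female pool, against -0.71 in the male pool, from intensities of 1990 (female) and 2302 (male). The difference of 0.15 log2, or 1.11-fold higher in the female pool, was 2.40 times its technical SD of 0.061. A difference of that size or more was found for 30.9% of all measured genes, and for 18.6% of the 2877 genes in the same bin of level. With spike-in scaling it was 0.066 log2.

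Grp encodes gastrin-releasing peptide, found in neurons of the nucleus that receive light input. Its level was -1.53 log2 in the female pool, against -1.44 in the male pool. The difference of -0.084 log2, 1.06-fold higher in the male pool, was 1.24 times the technical SD of 0.068, and 53.2% of all genes differed as much or more. With spike-in scaling it was -0.17 log2. Nmb, which encodes neuromedin B, the other bombesin-like peptide, had levels of -1.87 in the female pool, against -1.92 in the male pool. Its difference of 0.053 log2 lay within the technical SD of 0.068. It turned to -0.028 with spike-in scaling and widened to 0.13 with the normexp background correction, 2 extreme local backgrounds reset.

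Nms encodes neuromedin S and showed the widest difference of the 9 measured genes. Its spot was dim, with an intensity of 42.9 in the female pool, against 71.6 in the male pool, but well above background on both arrays. The levels were -6.10 log2 in the female pool, against -5.72 in the male pool, so Nms was 1.30-fold higher in the male pool, a difference of -0.38 log2 with a technical SD of 0.15. This is 2.53 times the technical SD, and 6.81% of all measured genes and 11.5% of the 9961 genes in the dimmest bin, where it lies, differed at least as much. The detection flag alone does not show a specific transcript at such a level. The spot of the Y-linked gene Sry passed it in the female pool too, at -5.06 log2. The Nms spot lies in slide row 416, inside a stretch of rows where repeated spots of 1 probe departed from their own median more often, 5.50% of them against 0.805% elsewhere, and the technical SD can understate its error. The spot of Nmb and that of the middle Adcyap1r1 probe lie in such rows too. With the same normexp correction the difference shrank to -0.0079 log2, and with spike-in scaling it was -0.46, so the value for Nms depends on the treatment of the background.

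Prok2 encodes prokineticin 2. Its spot was not well above background on either array, with intensities of 10.4 in the female pool, against 6.09 in the male pool, so no fold is given. The lowest level of any spot well above background was -7.72 log2 in the female pool, against -7.97 in the male pool, and the Prok2 spot lay under it in both, at -8.15 (female) and -9.27 (male). Prok2 transcripts were therefore not detectable with this probe in whole hypothalamus, which does not show that they are absent.

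**Figure D2:**
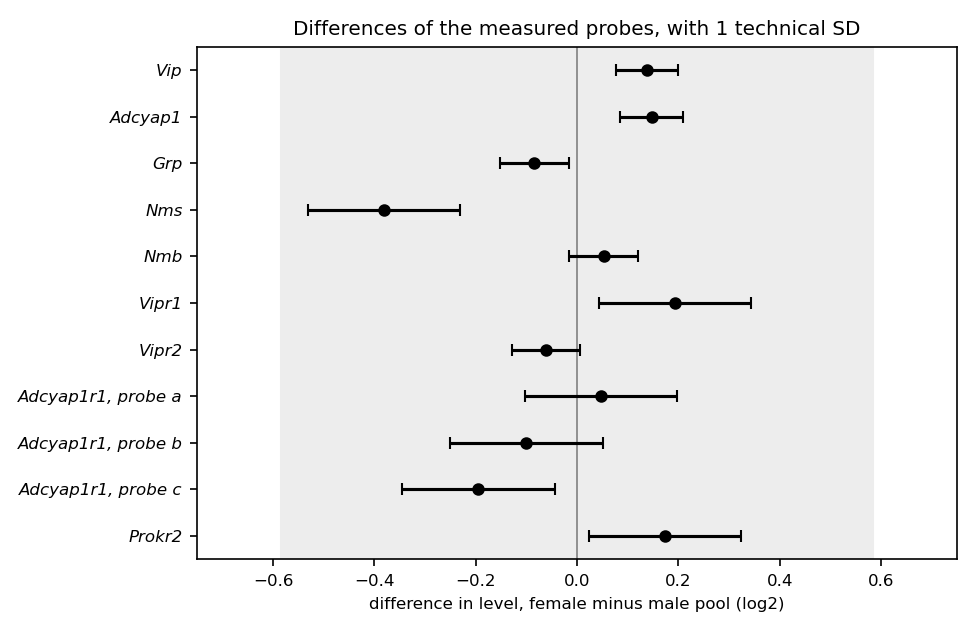
Difference in level between the female and male pools (horizontal axis, log2, female minus male) for the 11 measured probes, with bars of 1 technical SD. The grey area spans differences below 1.5-fold and holds all 11 probes; Nms lies lowest, at -0.38 log2, and Adcyap1r1 probes a, b and c are in order of their position in the transcript.

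None of the 4 receptor genes differed by 1.5-fold, against 2.4% of all measured genes. Vipr2, which encodes VPAC2, the receptor through which VIP couples clock neurons, had intensities of 1293 in the female pool, against 1727 in the male pool. These are levels of -1.19 log2 (female) and -1.13 log2 (male), a difference of -0.061 that lay within the technical SD of 0.068, but -0.14 with spike-in scaling, which exceeds it. Vipr1 encodes VPAC1, the other receptor that VIP and PACAP share, and had levels of -3.65 in the female pool, against -3.84 in the male pool. It was 1.14-fold higher in the female pool, 0.19 log2 with a technical SD of 0.15. Of all genes 21.2% differed as much, and 32.7% of the 9961 genes in the dimmest bin, where Vipr1 lies. With spike-in scaling the Vipr1 difference was 0.11 log2.

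Adcyap1r1 encodes PAC1, the receptor that prefers PACAP, and its 3 probes did not share a direction. The probe nearest the start of the transcript, printed above, had levels of -4.17 log2 in the female pool, against -4.22 in the male pool, a difference of 0.047. The next gave -5.52 in the female pool, against -5.42 in the male pool, a difference of -0.10, and the last -4.61 (female) and -4.41 (male), a difference of -0.19. The spread of 0.24 log2 between these probes was wider than the gene's mean difference of -0.083, and each probe's difference was at most 1.30 times its technical SD of 0.15. The gene value turned to 0.047 log2 when the brightest probe stood for the gene and to 0.050 with the same normexp correction, and it was -0.16 with spike-in scaling. The files list the same transcript variants for all 3 probes, so they do not tell the isoforms of PAC1 apart.

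Prokr2 encodes the prokineticin receptor of brain targets of the clock, also needed in development for the migration of gonadotropin-releasing hormone neurons. It had levels of -4.96 log2 in the female pool, against -5.14 in the male pool. The difference of 0.17 log2, 1.13-fold higher in the female pool, was 1.16 times the technical SD of 0.15, and 0.093 log2 with spike-in scaling. As reported, 24.6% of all measured genes differed at least as much, and 36.7% of the 9961 genes in the dimmest bin, where Prokr2 lies.

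**Figure D3:**
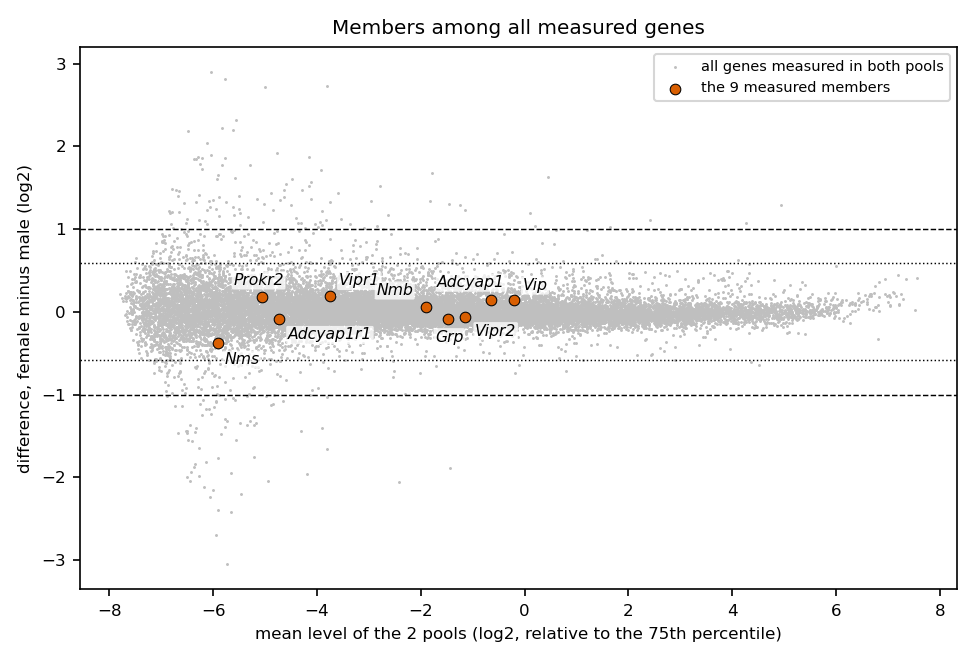
Difference between the pools (vertical axis, log2, female minus male) against the mean level (horizontal axis, log2 relative to the 75th percentile) for 20656 genes measured in both pools, with the 9 measured members in orange. Dotted lines mark 1.5-fold and dashed lines 2-fold; the members lie inside the dotted lines, and genes spread more widely at low levels, where Nms lies.

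Related genes of the same families were taken from lists written with earlier results of these data known. Of the 12 other listed ligands and receptors of the secretin family and the related TIP39 system, 8 were measured, 2 of them higher and 6 lower in females. None reached 1.5-fold, beside 2.4% of all genes. Their median of -0.090 log2 turned to 0.11 with normexp, 2 extreme local backgrounds reset, and was -0.17 with spike-in scaling. The secretin receptor gene Sctr had a level of -7.11 in the female pool, against -6.55 in the male pool, or 1.47-fold lower in females. Pth2r, which encodes a receptor of the peptide TIP39, was 1.39-fold higher in the female pool. Both came from spots in the uneven slide rows. Ghrh, which encodes growth hormone-releasing hormone, was 1.28-fold lower in females.

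Of 8 other genes of the bombesin, neuromedin U and prokineticin families, 6 were measured, 5 of them higher in females, with a median of 0.11 log2. Spike-in scaling lowered that median to 0.026. Brs3, which encodes the orphan bombesin-like receptor involved in energy balance, had levels of -6.01 in the female pool, against -6.85 in the male pool, a 1.79-fold difference from 1 spot in the uneven rows. It was the only one of the 6 past 1.5-fold, beside 2.4% of all genes. The 6 genes lie in the dimmest bin, with mean levels of -6.09 in the female pool, against -6.32 in the male pool. Prokr1 and Nmur1 were higher in females by 1.23-fold and 1.08-fold. The Nmur1 value came from 1 spot in the uneven rows, and its 0.11 log2 lay within the technical SD of 0.15. Grpr, the receptor gene for gastrin-releasing peptide, and Nmur2, the main brain receptor gene for neuromedin S, did not pass the detection flag on either array.

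Among other signals and regional markers of the suprachiasmatic nucleus, all 22 with a probe were measured, 13 higher and 9 lower in females, with a median of 0.029 log2 that turned to -0.051 with spike-in scaling and was also below 0 with quantile or median scaling and without the uneven rows. Of these 22 genes 1 passed 1.5-fold, beside 2.4% of all genes, the homeobox gene Six6, 1.61-fold higher in the female pool from 1 spot in the uneven rows. The synaptotagmin gene Syt10 and the dopamine receptor gene Drd1 were 1.41-fold and 1.32-fold higher there, again from spots in the uneven rows. Six6 had levels of -6.18 log2 in the female pool, against -6.87 in the male pool, and Drd1 -6.34 (female) and -6.74 (male). Both lay below the level of Sry in the female pool, -5.06, where the detection flag alone does not show a specific transcript.

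Genes listed for receptor signalling through cAMP, Gq and CREB were all within 1.5-fold, beside 2.4% of all genes at 1.5-fold or more. The list includes the receptor accessory genes Ramp1, Ramp2, Ramp3 and Mrap2. Of 28 measured genes 18 were higher and 10 lower in females, with a median of 0.059 log2 and differences from -0.13 to 0.24. Gna11, a Gq-class G protein gene, was higher in females by 1.18-fold, and the cAMP phosphodiesterase genes Pde4a and Pde4d were 1.15-fold and 1.12-fold higher. The median turned to -0.022 with spike-in scaling. Of 14 measured clock genes 8 were higher and 6 lower in females, and none reached 1.5-fold, beside 2.4% of all genes. Their median of 0.021 log2 fell below 0 with quantile, median and spike-in scaling. Per1 and Per2, which respond to light in the nucleus, were higher in females by 1.24-fold and 1.17-fold, and Per3 was 1.10-fold higher in the male pool. The hour of tissue collection and the stage of the oestrous cycle are not given in the labels, and the part of either in these values was not tested.

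**Figure D4:**
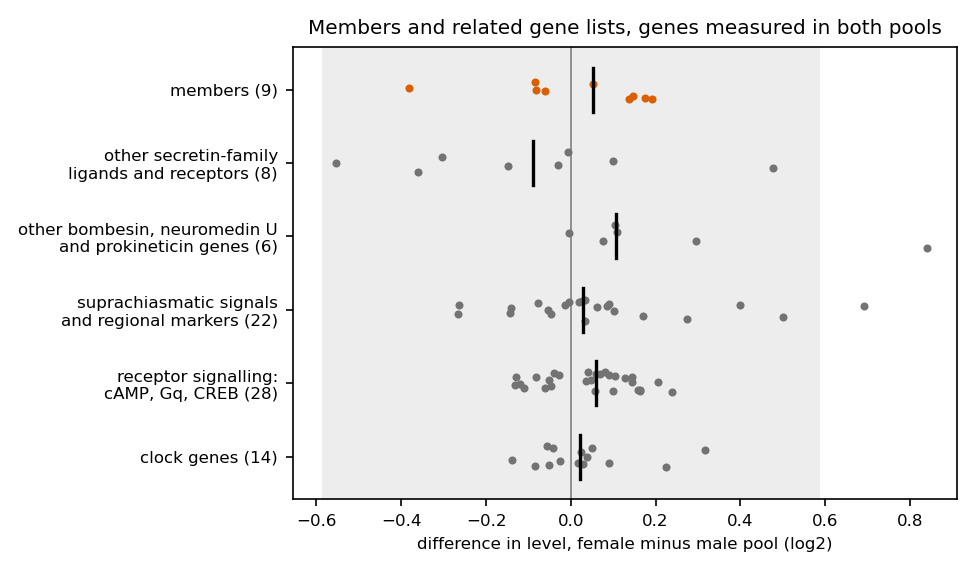
Difference between the pools (horizontal axis, log2, female minus male) of each measured gene in the members and 5 related lists, with the number of genes in brackets and a bar at the median. The grey area spans differences below 1.5-fold; outside it lie Brs3 and Six6.

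Marker genes of the tissue and its borders were checked beside the members. All 11 listed hypothalamic markers, among them Avp, Oxt, Hcrt and Nkx2-1, were measured in both pools, with differences from -0.30 to 0.41 log2. Of genes of the meninges and fibroblasts, 10 of 10 were higher in females, with a mean level of -1.71 in the female pool, against -2.70 in the male pool, and 5 of 5 blood genes were lower, with mean levels of -2.45 (female) and -1.83 (male). The pituitary list had 5 of 6 measured genes lower in the female pool, with mean levels of -3.23 (female) and -2.70 (male). Its differences ran from -2.05 log2, for Tshb, to 0.18, with a median of -0.28. The growth hormone gene Gh1 did not pass the detection flag on either array, and the prolactin gene Prl passed it for females only. Choroid plexus genes differed by -0.086 to 2.22 log2, and 4 of 6 were higher in females. Optic tract myelin genes, next to the nucleus, differed by -0.21 to 0.10 log2 and thalamic genes by -0.055 to 0.24. Neuronal genes differed by -0.027 to 0.082 and astrocyte genes by -0.24 to 0.24. The part of these tissues and cells in the members' values was not tested. Of 9 listed Y-linked genes 3 had a probe. Ube1y1 passed the detection flag for males only, and Tspy1 passed it on neither array. The Sry spot passed it on both, with -5.06 in the female pool, against -5.07 in the male pool. The flag therefore does not by itself show a specific transcript at this level. Nms and the middle Adcyap1r1 probe lay below this level in both pools, and Prokr2 lay close to it. Of the related genes named above, Sctr, Brs3, Prokr1, Nmur1, Six6 and Drd1 also lay below the Sry level in both pools.

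**Figure D5:**
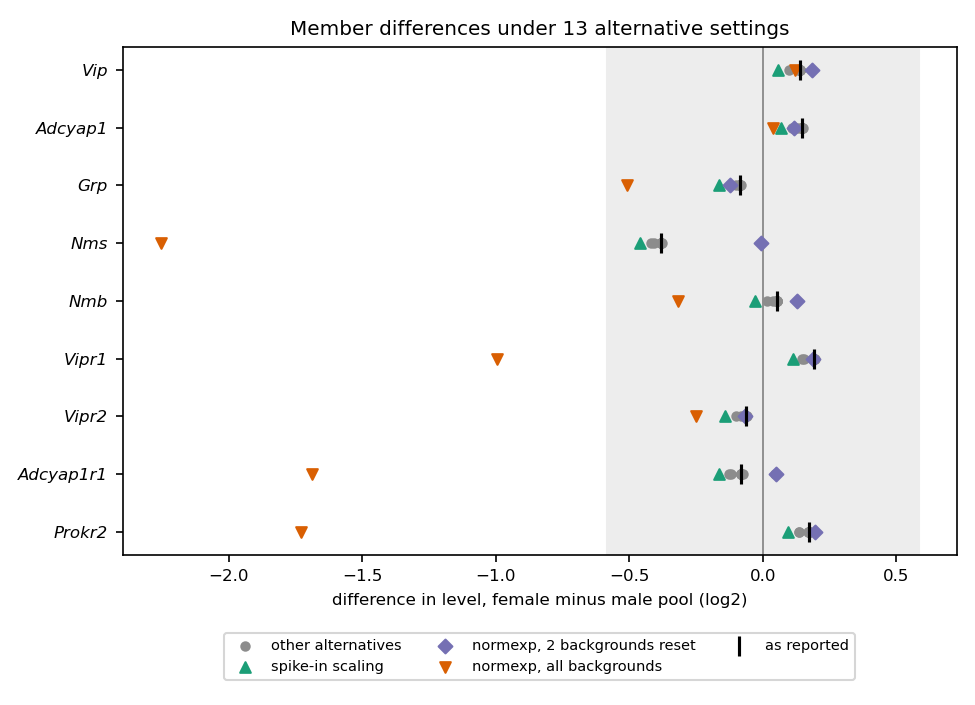
Differences of the 9 measured members (horizontal axis, log2, female minus male) as reported and under 13 other settings, of which Nms and Nmb have 12. Apart from the normexp correction with all local backgrounds, every value lies in the grey area of differences below 1.5-fold, and Nms ranges from -0.46 to -0.0079 log2.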

How the data were processed

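RNA of 5 rats per sex was pooled, and 150 ng of either pool was labelled with Cy3 in a linear amplification, per the labels' protocols. The authors' intensity of a spot is background-subtracted and spatially detrended by Feature Extraction 10.7.3.1, per the file headers. The submitters' processing notes name version 9.1, and which version made the values is not settled. The deposited value table holds the same intensity as a percentage of the array's 75th percentile. Outlier and detection flags are those of the deposited files.

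Of 42877 spots that are no controls, those with an outlier flag on one array or both were dropped. Spots were averaged per probe, and measured probes per gene. A probe counts as measured if the detection flag was set for over 50% of its spots, on each array. Genes were named by RefSeq accession, then by symbol (assembly GRCr8, for names alone), and 9355 of 30367 probes kept the file's name. Every member is named, and of each related list the 3 widest differences; Grpr and Nmur2 were added after their values were seen. Members and lists were chosen with earlier results of these data known. With 1 array per group no p-value is given, and the number of arrays limits the precision. The calculation was run on simulated spots with known folds and scatter of the technical SD, which checks the arithmetic only. Errors between rats, labelling reactions and slide rows were not simulated. Slide rows are called uneven where, in a window of 20 rows, over 2% of repeated spots departed from their probe's median by over 4 robust SD. Alternatives changed the background correction (normexp of limma 3.58.1, offset 50), scaling, filters, averaging and slide position. Python 3.11.15 and R 4.3.3 were used.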

Additional observations from a re-analysis of the deposited data

How the results depend on the processing

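Of 13 alternatives, 1 was chosen after seeing the data. Under 12 of them, all but the planned normexp correction, the 9 members stayed below 1.5-fold. The planned normexp fit was set by 2 spots of the male array with local backgrounds of up to 22727 against a median of 39. It moved the median of all genes to -0.55 log2 and that of the members to -0.51. The list medians moved to -1.84 (secretin family), -2.23 (bombesin, neuromedin U and prokineticin), -0.16 (suprachiasmatic), -0.26 (signalling) and -0.70 (clock). The planned normexp put 4 members past 1.5-fold and 3 past 2-fold. At 1.5-fold it put 48 of all genes higher and 10078 lower in females, and at 2-fold 9 and 7800. Those member counts are therefore not a result about the members. With both backgrounds reset, the added alternative, the member median was 0.12, and the first 2 lists moved to 0.11 and 0.25. Without the filter on dim probes 1 member, Prok2, passed both thresholds. Of all genes 1199 were then higher and 877 lower in females at 1.5-fold, and 546 and 458 at 2-fold. Only signs of Nmb, Adcyap1r1, Vipr1 and Prokr2 turned, the last 2 only with the planned normexp. Nms and Nmb have no value without the uneven rows.

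Counts of all genes at 1.5-fold, higher and lower in the female pool, were 321 and 174, but 147 and 39 without the uneven rows, 174 and 37 with normexp reset, 48 and 10078 with normexp, 580 and 480 with detection on either array, and 1199 and 877 without the filter. At 2-fold they were 105 and 70, but 31 and 4, 41 and 7, 9 and 7800, 289 and 292, and 546 and 458. No paired analysis was possible because each group holds 1 array.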
